A study of Mus musculus with 4 samples.

Results

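The RNAs of 10 enzymes that turn glucose into lactate were examined in an RNA immunoprecipitation sequencing (RIP-seq) experiment, in which an antibody against a protein is held on beads and the RNA that stays with it is sequenced. The genes were taken by name, Hk2, Gpi1, Aldoa, Tpi1, Gapdh, Pgk1, Pgam1, Eno1, Pkm and Ldha, and all 10 were found among the 55573 genes of the count table. All of them also passed the filter on low counts, among 12401 genes tested. Of the 4 libraries, 2 used an antibody against Runx1, a transcription factor needed for blood stem cells to arise from embryonic endothelium, and 2 used IgG, an antibody with no chosen target that gives the background. Every library came from CD31+ cells, a sort that takes endothelial and some blood cells, of the caudal portion of wild-type C57BL/6 mouse embryos at embryonic day 10.0. The study asked which RNAs stay with Runx1. Nothing in the labels ties the replicates to separate embryos or sorts. The p-values below therefore reflect only how far these libraries differ, and that spread could be technical.

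Glycolysis splits glucose into pyruvate in the cytosol and yields ATP without oxygen. Hexokinase traps glucose as glucose 6-phosphate, and glucose-6-phosphate isomerase, phosphofructokinase and aldolase turn that into triose phosphates. Triose phosphate isomerase, glyceraldehyde-3-phosphate dehydrogenase, phosphoglycerate kinase, phosphoglycerate mutase, enolase and pyruvate kinase then lead to pyruvate, which lactate dehydrogenase can reduce to lactate. Endothelial cells are known to draw much of their ATP from this pathway, and hypoxia-inducible factors are known to switch on many of its genes.

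Of the 10 enzymes, 9 took a larger part of both Runx1 libraries than of either IgG library, and Hk2 took a smaller part of both. Among all tested genes, 24.1% had both Runx1 libraries above both IgG libraries and 21.3% had both below. Eno1, which encodes enolase 1, was the only enzyme called higher by edgeR at a false discovery rate of 0.05. In that test 0.306% of all genes were called higher and 0.339% lower, and none of the 10 enzymes was called lower. In edgeR 8 of the 10 had an unadjusted p under 0.05, as had 1766 tested genes overall. The median log2 fold change of the 10 was 0.66, beside 0.027 over all tested genes, and 51.5% of all tested genes were above 0.

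Those are shares of a library, and the direction rests on how the libraries are scaled. The table also holds counts of synthetic spike-in RNAs, equal to 0.0356% and 0.0378% of the gene total in the Runx1 libraries and to 0.0128% and 0.0175% in the IgG libraries. When libraries were scaled to these spike-ins, all 10 enzymes had a log2 fold change below 0, with a median of -0.61. Hk2, Pkm and Ldha were then called lower by edgeR, as were 31.6% of all genes. The median gene stood at -1.25 on that scale, so that 9 of the 10 enzymes were above the median gene under either scaling. The median of the 10 enzymes was 0.65 above that of all genes with the spike-ins and 0.63 above it without. Scaling moves all genes of a library by the same factor, so this likeness follows from the method and is not separate support. How much spike-in was added, and at which step, is not given in the sources used here. All fold changes below are relative to the typical gene unless the spike-ins are named.

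Depth was 1675488 and 1887301 gene counts in the Runx1 libraries and 3843318 and 2482045 in the IgG libraries. All 9 endothelial markers looked at were present in every library. Unsorted tissue could show that too, so it does not check the sort. Levels are in CPM, each gene's count scaled to a common total of gene counts per library. The summed level of these markers was 1559 and 1299.7 CPM with the Runx1 antibody and 1584 and 1483 CPM with IgG, and the groups overlap. Of these sums, Kdr alone gave 836 and 663 CPM with the Runx1 antibody and 863 and 873 CPM with IgG. Markers of red blood cells summed to 871 and 866 CPM against 498 and 459.7 CPM, with 0 of 7 tested markers called in edgeR. Neural markers summed to 633 and 518 against 388 and 379.9 CPM, of which Nes alone gave 485 and 388 against 303 and 311 CPM. Mesenchymal markers summed to 1032 and 1097 against 968 and 875 CPM. Blood progenitor markers overlapped between groups, and the low sums of epithelial (149 to 152 against 104 to 148 CPM), macrophage (95.5 to 215 against 78.2 to 86.4 CPM) and megakaryocyte markers (12.5 to 17.5 against 2.34 to 2.42 CPM, with Gp1bb at 0 in all 4 libraries) did not. The sums of 6 of the 8 lists were higher in both Runx1 libraries, as were 9 of the 10 enzymes and 24.1% of all tested genes. In edgeR 0 markers of any list were called. The part of these lists in the enzymes' values was not tested. Single genes carried some of these sums. Ppbp carried that of the megakaryocyte list, and Csf1r (272 counts) most of that of the macrophage list in Runx1 replicate 2. Adgre1 (40 counts) and C1qa (27 counts) were also highest in that library, while Cd68 was at 0. Mrc1, also on that list, had a log2 fold change of -0.31. Krt8 carried the difference in the epithelial list, where Cdh1 and Krt18 had log2 fold changes below 0. Less RNA per cell and fewer cells of a type cannot be told apart in such libraries.

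**Figure D1:**
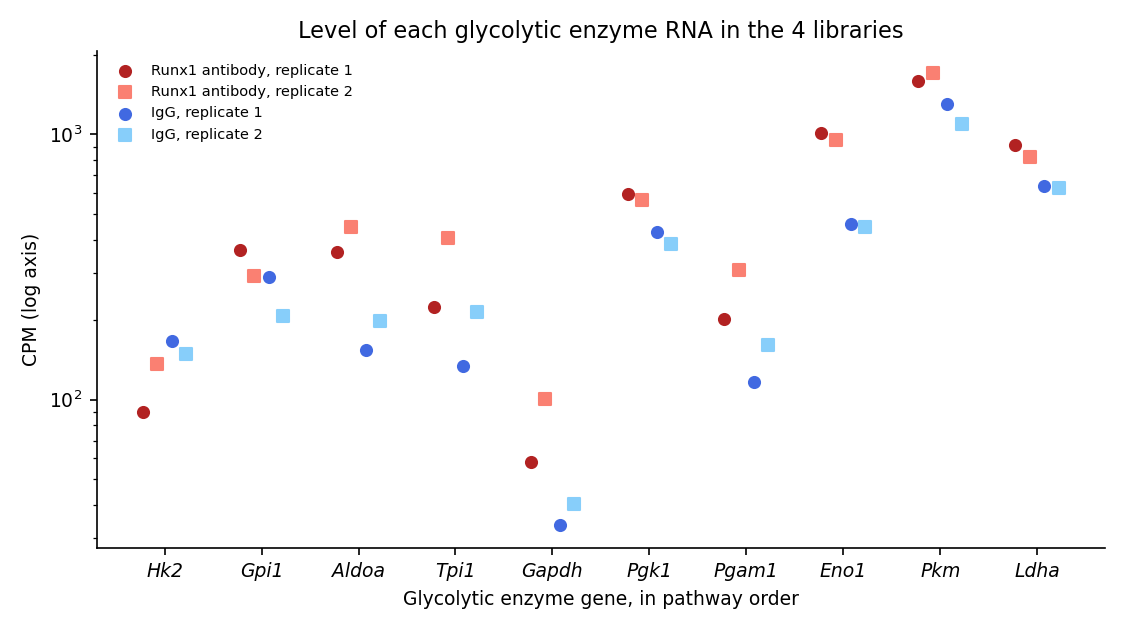
Level of each enzyme RNA in CPM (log axis) in the 4 libraries, with genes in pathway order; each point is 1 library. Red points (Runx1 antibody, dark and light) lie above blue points (IgG) for all genes except Hk2, where they lie below, and in Gpi1 the middle points nearly touch at 292 and 290.4 CPM.

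Because the readout is RNA held with a protein known to bind DNA, the letters that RUNX proteins recognise in DNA, TGTGGT and TGCGGT, were looked for in the enzyme mRNAs, on the transcript strand only. No other motif was searched. The Hk2 transcript, the only one of the 10 that was lower, held 6, all in its coding sequence, and the Eno1 transcript held 1. The sites below show both genes with the 6 matched bases in capitals and 12 bases on each side. They were read from the GENCODE M21 transcripts (mm10), with T standing for U.
Eno1, exon 3, chr4:150241046-150241075, plus strand: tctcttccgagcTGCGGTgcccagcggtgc
Hk2, exon 5, chr6:82743967-82743996, minus strand: ggaaggcagagaTGTGGTggatctgatccg
Hk2, exon 6, chr6:82743327-82743356, minus strand: tgacattgtggcTGTGGTgaatgacacggt
Hk2, exon 6, chr6:82743293-82743322, minus strand: accatgatgactTGTGGTtatgatgatcag
Hk2, exon 13, chr6:82732123-82732152, minus strand: cgagggtgaagaTGTGGTcaccttgctgaa
Hk2, exon 14, chr6:82731116-82731145, minus strand: gtttgacctggaTGTGGTggccgtggtaaa
Hk2, exon 17, chr6:82728832-82728861, minus strand: ggaggtgtgcacTGTGGTcgcccggcgcgc

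Long transcripts hold such short words often. Of the 2452 tested genes with a transcript as long as that of Hk2 (5513 bases), 91.1% held at least 1 within that length, with a median of 2. For the length of Eno1 (2027 bases) the share was 62.0% of 9734 genes, with a median of 1. Pgam1 held 3, Aldoa and Pkm held 2 each, and Gpi1, Pgk1 and Ldha held 1 each. Tpi1 and Gapdh held 0, where 54.1% and 49.8% of transcripts of at least their length held 1 or more within that length. Per kilobase, the density was 1.09 in Hk2, 0.493 in Eno1 and 0.502 over the longest transcripts of all tested genes. Aldoa, with the highest log2 fold change of the 10, had 1.32 per kilobase and Gapdh, nearly as high, had 0. Whether these letters go with the fold changes was not tested.

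Among the enzymes of the preparatory steps none passed the edgeR test. Hk2 encodes hexokinase 2, which is bound to mitochondria and makes glucose 6-phosphate. Its gene lies on chromosome 6 (82725025 to 82774454, minus strand, mm10). Hk2 stood at 89.5 and 137 CPM with the Runx1 antibody and at 167 and 148 CPM with IgG. Both Runx1 libraries were below both IgG libraries, but the Runx1 libraries lay farther apart than the nearest values of the groups. The log2 fold change was -0.50 ± 0.29 (SE), which did not pass (edgeR adjusted p = 0.504). Gpi1, which encodes the isomerase that makes fructose 6-phosphate (chromosome 7, 34201330 to 34230336, minus strand), stood at 367 and 292 CPM against 290.4 and 207 CPM. The libraries of each group lay about as far apart as the means of the groups. Gpi1 did not pass either (log2 fold change 0.38 ± 0.23, edgeR adjusted p = 0.515).

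Aldoa encodes aldolase A, which cleaves fructose 1,6-bisphosphate into both triose phosphates. Its gene lies on chromosome 7 (126795234 to 126800751, minus strand). Aldoa had 359 and 448 CPM with the Runx1 antibody and 154 and 198 CPM with IgG. The groups lay well apart. This was the highest log2 fold change of the 10, at 1.17 ± 0.22, just short of the threshold (edgeR adjusted p = 0.0599). DESeq2 called Aldoa higher (log2 fold change 1.15 ± 0.24, DESeq2 adjusted p = 0.000106), as did limma-voom (1.22 ± 0.21, limma adjusted p = 0.0144). Removing a single library other than IgG replicate 1 brought the edgeR adjusted p to between 0.000889 and 0.0257, and without IgG replicate 1 it was 0.0665. In such a fit 1 group has a single library, which is assumed to vary like the other group, and more genes are called than with all 4 libraries, so a smaller p there is not firmer evidence.

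Tpi1, which encodes the isomerase that interconverts the triose phosphates (chromosome 6, 124810586 to 124814296, minus strand), stood at 224 and 407 CPM against 134 and 214 CPM. The lower Runx1 library was only just above the higher IgG library. The log2 fold change was 0.84 ± 0.33 (edgeR adjusted p = 0.299). Without Runx1 replicate 1 it was 1.18 ± 0.26 and called higher (edgeR adjusted p = 0.00516), without IgG replicate 2 it was 1.20 ± 0.34 and called (edgeR adjusted p = 0.0405), while without Runx1 replicate 2 it was 0.31 and without IgG replicate 1 it was 0.52, with neither called.

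The enzymes that harvest energy from the triose phosphates were led by Eno1. Enolase makes phosphoenolpyruvate, and the Eno1 gene lies on chromosome 4 (150236721 to 150248879, plus strand). The Runx1 libraries held 1693 and 1805 Eno1 counts and the deeper IgG libraries 1771 and 1106. These were 1010.5 and 956 CPM against 461 and 446 CPM. The groups were far apart and the replicates close, with means of 983 ± 38.2 and 453 ± 10.7 CPM (SD, n = 2 each). Eno1 rose 2.13-fold (log2 fold change 1.09 ± 0.13, edgeR adjusted p = 0.0159). DESeq2 (1.07 ± 0.15) and limma-voom (1.08 ± 0.12) called it too, with adjusted p-values of 1.59e-10 (DESeq2) and 0.000654 (limma-voom). The edgeR call was lost after the correction for transcript length and GC content described below (adjusted p = 0.119) and with the spike-ins (-0.19, edgeR adjusted p = 0.647). It was also lost with a replicate block (1.09 ± 0.13, edgeR adjusted p = 0.0642), although nothing in the labels pairs the replicates.

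By the other tools, DESeq2 called 3 of the 10 enzymes higher, Aldoa, Eno1 and Pkm, where it called 3.91% of genes with an adjusted p higher. With limma-voom 2 were called higher, Aldoa and Eno1, against 0.823% of all tested genes. Pkm encodes the muscle-type pyruvate kinase (chromosome 9, 59656368 to 59679375, plus strand), which makes pyruvate. It had the most counts of the 10 in every library, at 1595 and 1699.8 CPM with the Runx1 antibody and 1299 and 1090.2 CPM with IgG. The groups did not overlap. Its log2 fold change was 0.44 ± 0.12 (edgeR adjusted p = 0.160, DESeq2 adjusted p = 0.0184). The gene-level table does not separate the M1 and M2 splice forms of Pkm.

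Pgk1, which encodes the kinase of the first ATP-yielding step, is X-linked (106187100 to 106203699, plus strand). It stood at 594 and 567 CPM against 430.4 and 385 CPM, with groups that did not overlap (log2 fold change 0.48 ± 0.15, edgeR adjusted p = 0.206). Ldha encodes the A subunit of lactate dehydrogenase (chromosome 7, 46841475 to 46855627, plus strand). Its 908 and 819 CPM lay above the 641 and 629 CPM with IgG (log2 fold change 0.41 ± 0.13, edgeR adjusted p = 0.203). Pgk1, Pkm and Ldha thus shared a small difference with a small error. Pgam1, which encodes the phosphoglycerate mutase of most tissues (chromosome 19, 41911923 to 41918660, plus strand), stood at 201 and 307 CPM against 116 and 160.4 CPM. Its difference was larger but so was its spread (log2 fold change 0.85 ± 0.28, edgeR adjusted p = 0.227), and its size rested on single libraries. The log2 fold change was 1.099 ± 0.27 without Runx1 replicate 1 (edgeR adjusted p = 0.0169), 0.49 without Runx1 replicate 2 (edgeR adjusted p = 0.523) and 0.62 without IgG replicate 1 (edgeR adjusted p = 0.527).

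**Figure D2:**
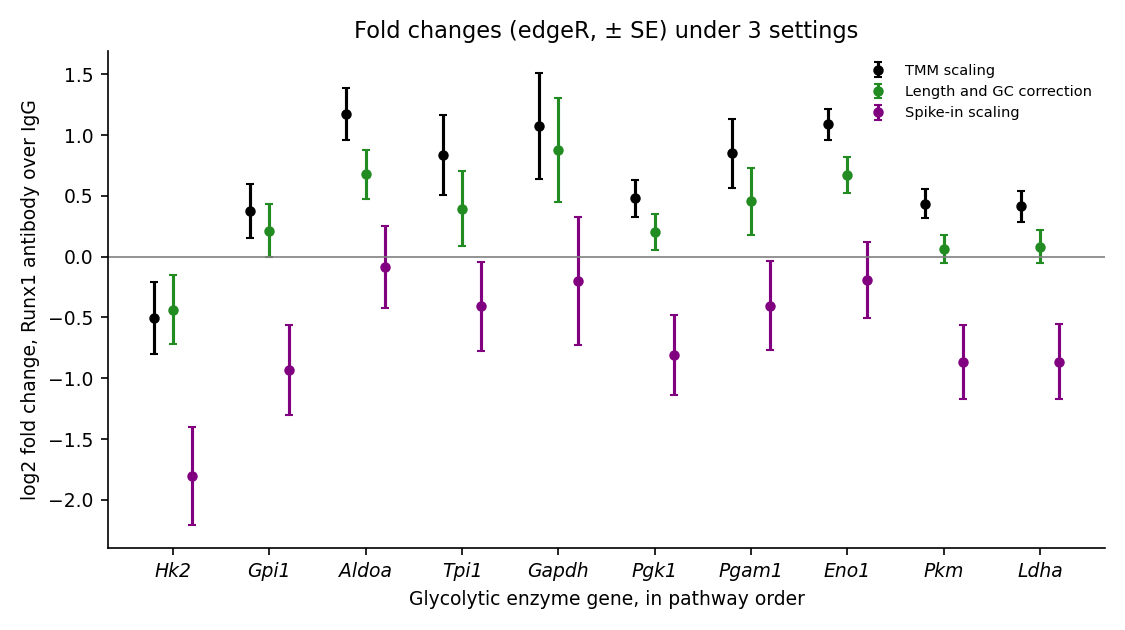
Log2 fold change of the Runx1 antibody over IgG for each enzyme (points, edgeR) with its SE (bars), with TMM scaling (black), after the length and GC correction (green) and with spike-in scaling (purple). The black values run from -0.50 (Hk2) to 1.17 (Aldoa), the corrected ones sit nearer 0 for all 10 genes, and all 10 spike-in values are below 0.

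A ratio of counts within one library does not move with any scaling of that library, so each enzyme was set against Pkm. For each 100 Pkm counts, the Runx1 libraries held 63.3 and 56.3 Eno1 counts and the IgG libraries 35.5 and 40.9. Aldoa had 22.5 and 26.3 against 11.8 and 18.1, and Hk2 had 5.61 and 8.04 against 12.8 and 13.6. In these 3 of 9 the groups did not overlap, Eno1 and Aldoa being higher and Hk2 lower relative to Pkm. Among all tested genes set against Pkm, 11.2% were higher in this way and 38.9% lower. An exact two-sided permutation test of 2 against 2 libraries gave p = 0.333 for each, which is the smallest it can give. Ldha (56.9 and 48.2 against 49.3 and 57.7), Pgk1 (37.2 and 33.4 against 33.1 and 35.3) and Gpi1 (23.0 and 17.2 against 22.4 and 19.0) overlapped. Tpi1, Gapdh and Pgam1 overlapped as well.

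**Figure D3:**
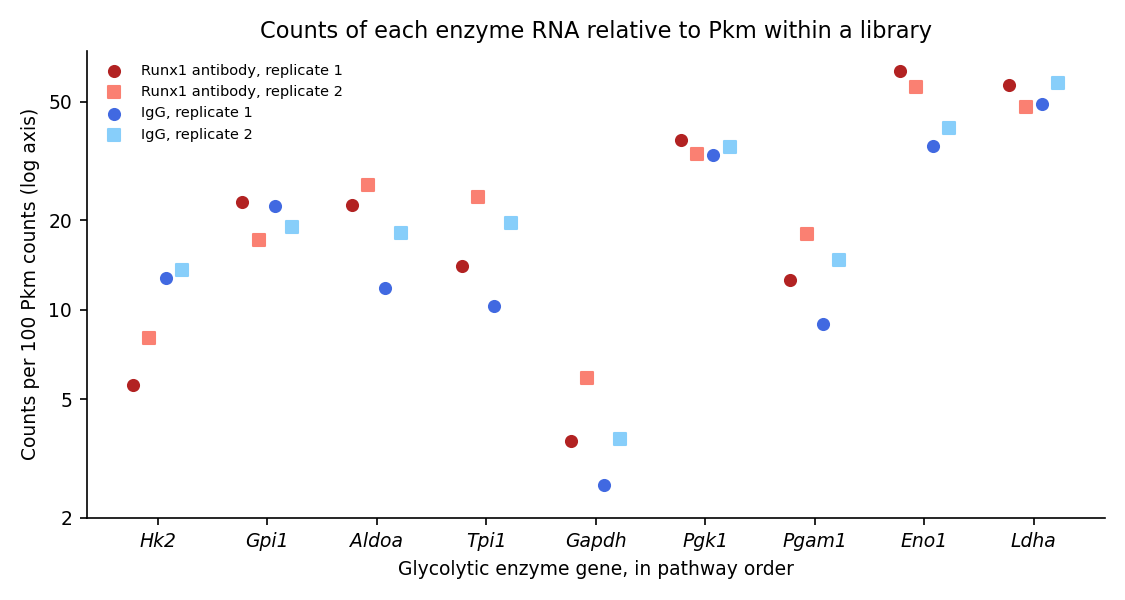
Counts of each enzyme RNA per 100 Pkm counts of the same library (log axis); each point is 1 library. Red points (Runx1 antibody, dark and light) stand clear of blue points (IgG) for Hk2, which is lower, and for Aldoa and Eno1, which are higher.

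Per kilobase of transcript, the first 6 enzymes stood in the same order with both antibodies, but at different distances. With IgG the order was Pkm (491 CPM per kb), Ldha (359.5), Eno1 (224), Pgk1 (223), Aldoa (116), Tpi1 (108), Gpi1 (86.2), Pgam1 (77.9), Hk2 (28.6) and Gapdh (26.0). The libraries of Eno1 and Pgk1 overlapped, as did those of neighbours from Aldoa to Pgam1, and those of Hk2 and Gapdh. With the Runx1 antibody Eno1 (485 CPM per kb) stood beside Ldha (489), above Pgk1 (318), and below Pkm (677). The libraries of Eno1 (472 to 499 CPM per kb) and Ldha (464 to 514) overlapped there, while those of Eno1 and Pgk1 (311 to 325) did not. Aldoa (267), Tpi1 (196), Pgam1 (143), Gpi1 (114), Gapdh (55.6) and Hk2 (20.5) followed. The libraries of neighbours from Aldoa to Gpi1 overlapped here too, so the order of Pgam1 and Gpi1 was not resolved with either antibody.

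Gapdh stood low in this order, and its count is the least certain of the 10. The enzyme makes 1,3-bisphosphoglycerate and NADH, and its gene lies on chromosome 6 (125161715 to 125166467, minus strand). The Runx1 libraries held 97 and 189 Gapdh counts and the IgG libraries 129 and 100, which is 57.9 and 100.1 against 33.6 and 40.3 CPM. The groups did not overlap, but the SE was wide (log2 fold change 1.07 ± 0.43, edgeR adjusted p = 0.316). Among the counted genes, 78 others carried a stretch of at least 200 bases that matched Gapdh at 95% identity or more, and 42 of them had counts. Together these copies took 391 and 338 counts in the Runx1 libraries and 271 and 341 in the IgG libraries, more than the Gapdh gene in every library.

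The copies with most counts were the processed pseudogenes Gm3200 (727 counts over the 4 libraries), Gm3695 (291) and Gm7336 (109), where Gapdh itself had 515. Gm3200, on chromosome 7 (100760805 to 100761806, minus strand), differs from the 1002 bases of the Gapdh coding sequence at 14 positions. Gm3695, on chromosome 12 (81372213 to 81373221, minus strand), differs at 24, and Gm7336, on chromosome 7 (51746647 to 51747878, plus strand), at 0. The stretch of 60 bases with the most differences over these copies, bases 705 to 764 of the coding sequence, shows how few letters separate them. Letters that differ from Gapdh are in capitals.
Gapdh: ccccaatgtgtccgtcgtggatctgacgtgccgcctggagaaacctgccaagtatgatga
Gm3200: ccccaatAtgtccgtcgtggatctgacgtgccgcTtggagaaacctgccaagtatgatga
Gm3695: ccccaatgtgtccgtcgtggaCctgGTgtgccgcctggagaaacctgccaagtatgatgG
Over the whole Gapdh transcript, 78.0% of stretches of 100 bases also occurred in the transcript of another gene.

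When the counts of the copies were added, Gapdh stood at 291 and 279 CPM against 104 and 178 CPM. The Runx1 libraries, which differed by 0.79 (log2) from each other for the gene alone, then lay close together, while the IgG libraries lay farther apart. The log2 fold change was 0.99 ± 0.28 (edgeR adjusted p = 0.166). Other enzymes share long stretches with copies as well. The share of 100-base stretches found in another gene was 67.0% for Pgk1, 59.0% for Eno1 and 39.7% for Pgam1, under 10% for Pkm, Gpi1, Ldha and Tpi1, and 0 for Hk2 and Aldoa. For stretches of 50 bases Hk2 stayed at 0. The share was then 72.2% for Eno1, 34.4% for Pkm, 25.3% for Gpi1, 17.1% for Ldha, 13.9% for Aldoa and 7.51% for Tpi1. In these genes the copies took few counts, 108 beside 6375 for Eno1 and 9 beside 4674 for Pgk1 over all libraries. Exons of Aldoa, Gapdh, Gpi1 and Tpi1 overlap genes of the opposite strand, and those of Pkm a gene of the same strand, and the strand setting is not given in the sources used here.

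**Figure D4:**
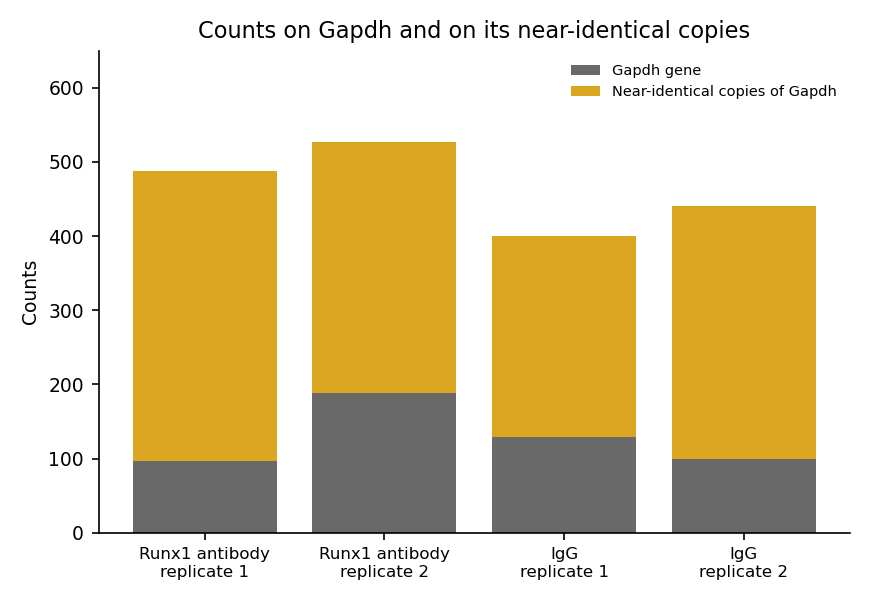
Counts on the Gapdh gene (grey) and on its 78 near-identical copies (gold, stacked) in each library. The gold part, 271 to 391 counts, is larger than the grey part, 97 to 189 counts, in all 4 libraries.

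The spread between replicates was not alike over the enzymes. Tpi1, Pgam1, Gapdh and Aldoa were higher in the library labelled replicate 2 with both antibodies, by 0.86, 0.61, 0.79 and 0.32 (log2) with the Runx1 antibody and by 0.67, 0.47, 0.26 and 0.36 with IgG. Eno1, Ldha and Pgk1 differed by at most 0.16 between replicates with either antibody. Gpi1 was lower in replicate 2 with both, at -0.33 and -0.49. Hk2 differed by 0.61 with the Runx1 antibody and by -0.17 with IgG. Nothing in the labels pairs the replicate numbers of the 2 antibodies. Over all 12401 tested genes these differences had a Pearson r of 0.0044, and a shared cause for the enzymes was not tested.

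**Figure D5:**
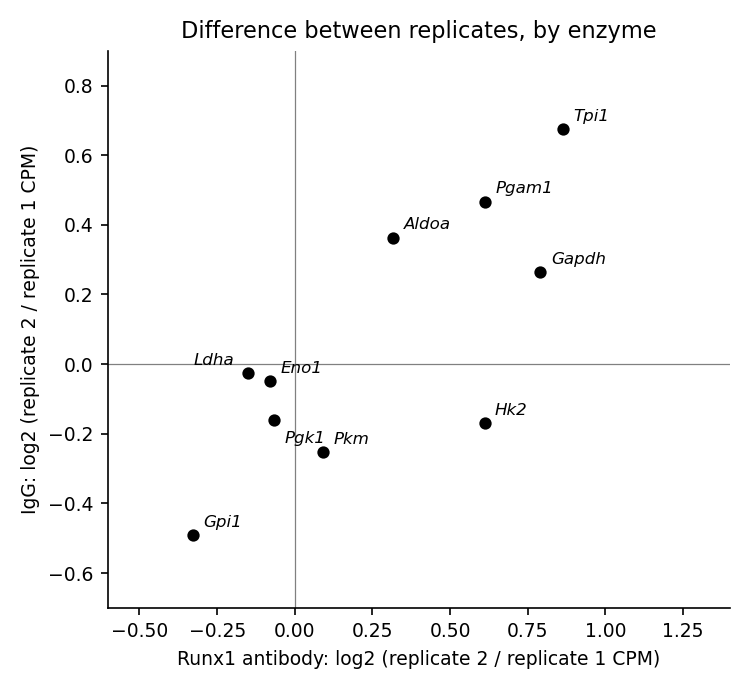
Log2 ratio of replicate 2 to replicate 1 in CPM for each enzyme, with the Runx1 antibody (horizontal) and with IgG (vertical); each point is 1 gene. Tpi1, Pgam1, Gapdh and Aldoa lie at the upper right, and Eno1, Ldha, Pgk1 and Pkm lie within 0.26 of 0 on both axes.

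The 10 transcripts are short and rich in G and C beside other tested genes. The longest principal coding transcripts of the 10 had a median length of 1800 bases and a median GC content of 53.5%. Over tested genes the longest transcript of any kind was taken, with medians of 3466.5 bases and 48.7%. This unlike choice of transcript makes the enzymes look shorter than a like choice would. By these measures 9 of the 10 were shorter than the tested median and all 10 richer in GC. The tested genes were split by length into 4 groups of equal size. Those with the shortest transcripts had a median log2 fold change of 0.35, and the following groups had 0.14, -0.032 and -0.24. By their longest transcripts, 6 of the enzymes belonged to the shortest group, 3 to the next, and Hk2 to the longest. Within the 10, the length of the principal coding transcript and the log2 fold change had a Spearman rho of -0.68 (n = 10 genes that share 4 libraries). Over 12396 tested genes the rho for the longest transcript was -0.26.

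After a correction of each library for transcript length and GC content, 9 of the 10 enzymes were still above 0, with a median of 0.30. All tested genes then had a median of 0.049. The enzyme median lay 0.25 above that of all genes, beside 0.63 without the correction. None was called by edgeR. Gapdh (0.88 ± 0.43), Aldoa (0.68 ± 0.20) and Eno1 (0.67 ± 0.15, edgeR adjusted p = 0.119) stayed highest. Pkm (0.065 ± 0.12) and Ldha (0.080 ± 0.14) came within their SE of 0. Hk2 moved little, to -0.44 ± 0.28.

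As a whole the 10 enzymes made up 0.541% and 0.573% of the Runx1 libraries and 0.372% and 0.352% of the IgG libraries. The means were 0.557 ± 0.023% and 0.362 ± 0.015% (SD, n = 2 each), a ratio of 1.54. An exact two-sided permutation test gave p = 0.333, the smallest that 6 arrangements allow. Per spike-in count the order was turned, with 15.2 enzyme counts in both Runx1 libraries and 29.0 and 20.1 in the IgG libraries.

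For most steps a single isozyme gave nearly all counts. Eno1 made up 96.9% to 98.6% of enolase counts, Aldoa 96.2% to 98.3% of aldolase counts, and Pkm at least 99.3% of pyruvate kinase counts in every library. Hk2 made up 75.0% (exact binomial 95% interval 68.4 to 80.8) and 77.0% (72.1 to 81.4) of hexokinase counts with the Runx1 antibody. With IgG it made up 86.3% (83.6 to 88.7) and 76.7% (72.6 to 80.4), and the groups overlap. Ldha made up 88.3% (86.7 to 89.8) and 86.0% (84.3 to 87.5) of lactate dehydrogenase counts in the Runx1 libraries and 94.5% (93.6 to 95.4) and 88.4% (86.8 to 89.9) with IgG. IgG replicate 1 stood apart in both, and the other IgG library was close to the Runx1 libraries. These intervals cover counting error only, and the reads carry no molecular identifiers that the labels name.

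Of 19 genes for other isozymes and steps of the pathway, 10 were tested, 0 were called higher and 0 lower by edgeR (1 higher and 0 lower with an unadjusted p under 0.05), DESeq2 or limma-voom, and their median log2 fold change was 0.36. Ldhb, the heart-type subunit of lactate dehydrogenase, stood at 120.0 and 134 CPM with the Runx1 antibody and 36.4 and 81.8 CPM with IgG (1.08 ± 0.42, edgeR adjusted p = 0.291). The phosphofructokinase gene Pfkl, for the liver-type enzyme of the committing step, stood at 207 and 312 against 180.1 and 241 CPM, and the groups overlapped. Muscle enolase Eno3 stood at 12.5 and 27.6 against 6.24 and 5.24 CPM (1.77 ± 0.81, edgeR adjusted p = 0.371).

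The 8 glucose and lactate carriers had a median of 0.12. DESeq2 called 1 of them higher, where it called 3.91% of genes with an adjusted p higher, and limma-voom called 0. In edgeR 0 were called (2 higher and 0 lower with an unadjusted p under 0.05). Slc2a1, the main glucose carrier of endothelium, came nearest, at 156 and 143 CPM against 55.4 and 63.7 CPM. Both Runx1 libraries held more than 2 times the level of either IgG library, but the gene did not pass (log2 fold change 1.30 ± 0.30, edgeR adjusted p = 0.102). Bsg, a chaperone of lactate carriers, had 83.0 and 92.7 against 48.7 and 39.5 CPM (0.96 ± 0.37, edgeR adjusted p = 0.287). Of 15 regulators 12 were tested and 0 were called by edgeR (1 higher and 0 lower with an unadjusted p under 0.05), DESeq2 or limma-voom, with a median of -0.016. Mycn, a transcription factor of growing tissues, had 0.93 ± 0.40 (edgeR adjusted p = 0.342), and Hif1an, which hydroxylates hypoxia-inducible factors, had -0.51 ± 0.23 (edgeR adjusted p = 0.365).

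Genes with a profile most like the mean profile of the enzymes over the 4 libraries were sought among 2223 protein-coding genes of at least 100 CPM. The nearest, by Euclidean distance of log2 levels centred on each gene's mean, were Upf3b (0.034), Hsp90ab1 (0.059), Sparc (0.063), Smarcc1 (0.081) and Rpsa (0.084). Their log2 fold changes ran from 0.57 (Smarcc1) to 0.68 (Rpsa), and only Hsp90ab1, a chaperone, was called higher in edgeR (adjusted p = 0.0348). With 4 libraries such likeness is a description only.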

How the data were processed

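The authors deposited raw whole-number counts per Ensembl gene, 1 column per library. STAR 2.7.3a, Salmon 1.1.0, Trimmomatic 0.36 and mm10 appear in the submitters' processing notes, with no role or order. The sources used here do not give the annotation, the strand setting or whether the counts are rounded estimates. Per the labels' protocols, RNA recovered on the beads was reverse transcribed with an adapted single-cell method. Genes were matched to GENCODE M21. CPM is per gene total without spike-ins, and 3 counts equal 0.781 to 1.79 CPM.

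All genes were tested with edgeR 4.0.16 (quasi-likelihood, TMM, filterByExpr with a minimum count of 10 and total of 15, two-sided, no block), with Benjamini-Hochberg adjustment over 12401 genes at 0.05, and the test was checked on simulated counts. SEs are those implied by the test. DESeq2 1.42.0, limma 3.58.1 (voom), other scalings and filters, spike-in scaling, length and GC offsets (splines, 5 degrees of freedom), a replicate block, left-out libraries and added copies were alternatives. Copies were found with blastn 2.17.0. CPM per kb uses the longest principal coding transcript. Aldoa has a second gene model, not used here. Members and lists were chosen with earlier results of these data known. All 10 members were named, and from each list called genes or up to 3 with the smallest p or highest level.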

Additional observations from a re-analysis of the deposited data

How the results depend on the processing

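With spike-in scaling 19 genes were higher and 3914 lower, and 0 enzymes were called higher and 3 lower. The median of the enzymes was -0.61, beside -1.25 over all tested genes. The log2 fold change turned negative for Gpi1 (-0.93), Aldoa (-0.084), Tpi1 (-0.41), Gapdh (-0.20), Pgk1 (-0.81), Pgam1 (-0.40), Eno1 (-0.19), Pkm (-0.86) and Ldha (-0.86), and the log2 ratio of the summed share became -0.69 per spike-in count, from 0.62. Calls over all genes, 38 higher and 42 lower in the edgeR fit, were 224 and 325 without a low-count filter (3 enzymes higher), 125 and 159 with at least 10 counts in each library (2 enzymes), 229 and 357 with DESeq2 (3 enzymes), and 102 and 120 with limma-voom (2 enzymes). The length and GC correction gave 32 and 4, with 0 enzymes and an enzyme median of 0.30, beside 0.049 over all tested genes.

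Leaving out 1 library in turn gave 95 to 248 higher and 81 to 352 lower genes, and 2 to 5 enzymes higher, Eno1 in each. The most, 5, came without Runx1 replicate 1 (Aldoa, Tpi1, Pgam1, Eno1 and Pkm). Nothing in the labels says that replicate numbers pair the libraries, and the differences between replicates of the 2 antibodies had a Pearson r of 0.0044 over 12401 genes. With a replicate block 2 genes were higher, 0 lower and 0 enzymes called, and Eno1 stood at 1.09 ± 0.13 (edgeR adjusted p = 0.0642). Under all settings other than the spike-ins, no enzyme changed direction. DESeq2 size factors, library totals alone and added copies moved no enzyme across the threshold. The causes of these shifts were not tested, beyond the change in genes or libraries that a filter or a left-out library makes itself.

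Low counts limit Gapdh (97 to 189 counts) and Hk2 (150 to 641) most. For Gapdh this is not depth alone, since its near-identical copies took 271 to 391 counts, more than the gene in every library.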

Other observations

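Around glycolysis, the tricarboxylic acid cycle had 16 genes, all tested, of which 14 had a log2 fold change above 0 (median 0.56), beside 51.5% of all tested genes. In edgeR 0 of them were called (8 higher and 1 lower with an unadjusted p under 0.05, which 1766 of all 12401 tested genes had). DESeq2 called 3 higher, where it called 3.91% of genes with an adjusted p higher, and limma-voom called 0. With spike-in scaling their median was -0.76 and edgeR called 4 of the 16 lower. Over all tested genes that scaling gave a median of -1.25, with 31.6% called lower. Idh3b, a subunit of isocitrate dehydrogenase, stood at 23.3 and 85.3 CPM with the Runx1 antibody and 12.0 and 5.24 CPM with IgG (2.61 ± 0.77, edgeR adjusted p = 0.188). Suclg2, of succinate-CoA ligase, had 85.9 and 57.2 against 22.9 and 26.2 CPM. The 12 tested genes of pyruvate entry into mitochondria, with 0 called by edgeR (1 higher and 0 lower with an unadjusted p under 0.05), DESeq2 or limma-voom, had a median of -0.00066, near that of all genes.

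In the pentose phosphate pathway, which leaves glycolysis at glucose 6-phosphate, 7 of 8 genes were tested and 6 were above 0 (median 0.47), with 0 called by edgeR (2 higher and 0 lower with an unadjusted p under 0.05), DESeq2 or limma-voom. G6pdx, its first enzyme, had 48.9 and 51.9 CPM with the Runx1 antibody and 13.0 and 0.403 CPM with IgG, where the IgG libraries differed most from each other. Only 2 of 6 genes of gluconeogenesis were tested, and 0 were called by edgeR (1 higher and 0 lower with an unadjusted p under 0.05). DESeq2 called 1 higher, as did limma-voom, where they called 3.91% of genes with an adjusted p and 0.823% of tested genes higher. Pck2, the mitochondrial phosphoenolpyruvate carboxykinase, had 62.1 and 98.6 against 16.4 and 17.3 CPM (2.22 ± 0.47, edgeR adjusted p = 0.0843), a larger difference than in any of the 10 glycolytic enzymes. Of 14 genes of side branches and shuttles 12 were tested and 0 called by edgeR (3 higher and 0 lower with an unadjusted p under 0.05), DESeq2 or limma-voom, with a median of 0.61. Phgdh, which starts serine synthesis from 3-phosphoglycerate, had 208 and 244 against 133 and 127 CPM (0.77 ± 0.23, edgeR adjusted p = 0.190).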
